A study of Mus musculus with 24 samples.

Results

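The immediate early transcription factors described here are 10 genes, Fos, Fosb, Jun, Junb, Egr1, Nr4a1, Nr4a2, Nr4a3, Atf3 and Ier2, found by gene symbol in a table of 41128 genes counted in mouse aorta. All 10 were present, and all 10 passed the filter on low counts. Total RNA of aorta was sequenced in 24 libraries, in 8 groups of 3. The labels number the replicates without stating that each is a separate animal; libraries are called mice here, and p-values measure the spread between libraries. The knockout (KO) mice carried the targeted allele Ppp3cb tm1Jmk on a B6,129S6 background, and the others were wildtype (WT). The product of Ppp3cb, calcineurin A beta, is a protein phosphatase that responds to calcium through calmodulin. Mice of each genotype and sex either received angiotensin II (AngII) for 4 weeks, from implanted osmotic pumps at 500 ng/kg/min, or were labelled control. All were 5 months old. Whether the control mice carried a pump, whether WT mice were littermates and which part of the gene the allele lacks are not stated in the labels. The series addresses the part of Ppp3cb in what AngII does to vessels. On build mm10 the members whose values differed most lie at chr4:48045153-48086447 (Nr4a3, ENSMUSG00000028341, plus strand), chr1:191170296-191218039 (Atf3, ENSMUSG00000026628, minus strand) and chr8:84974484-84978718 (Junb, ENSMUSG00000052837, minus strand), and all 10 are annotated as protein-coding.

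Immediate early genes are transcribed within minutes of a stimulus, without new protein synthesis, and their transcripts decay quickly. In smooth muscle, AngII acting on its type 1 receptor raises calcium and mitogen-activated protein kinase activity, which act on these promoters through serum response factor with its Elk partners, CREB and MEF2 proteins. Calcineurin dephosphorylates the NFAT factors and the CREB coactivators of the CRTC family, and in mouse T cells it acts on Nr4a1 through MEF2 factors. Fos and Jun family proteins pair to form AP-1. Egr1 is a zinc finger activator, the NR4A proteins are orphan nuclear receptors, Atf3 is a stress-induced factor of the ATF/CREB family, and Ier2 is a small nuclear protein.

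The upstream sequences of 6 members are shown because CREB and ATF proteins bind the sequence TGACGTCA and its shorter form TGACG. The NR4A genes are among them because their 3 members all had lower estimates in KO than in WT mice. None of the 3 was called, and in control mice all 3 estimates turned positive with WT control male replicate 1 left out, as given below. RefSeq promoters (GRCm38.p6) were matched by symbol for 8 of the 10 members. The 250 bases before each start site were searched on both strands for TGACG, which reads CGTCA where it lies on the other strand, and matches are in capitals. For Jun the capitals mark TGACATCA. The printed stretch runs from 12 bases before the first match to at most 12 bases after the last.
Nr4a1 promoter (chr15:101266601-101266822, plus strand): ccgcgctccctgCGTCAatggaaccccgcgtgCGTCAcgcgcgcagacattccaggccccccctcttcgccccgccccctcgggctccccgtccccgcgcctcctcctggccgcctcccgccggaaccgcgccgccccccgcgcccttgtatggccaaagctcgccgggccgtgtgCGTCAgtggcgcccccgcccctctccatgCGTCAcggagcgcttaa
Nr4a2 promoter (chr2:57124098-57124215, minus strand): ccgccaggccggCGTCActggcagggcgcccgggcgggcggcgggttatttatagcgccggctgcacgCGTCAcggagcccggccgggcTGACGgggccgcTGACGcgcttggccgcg
Nr4a3 promoter (chr4:48045062-48045174, plus strand): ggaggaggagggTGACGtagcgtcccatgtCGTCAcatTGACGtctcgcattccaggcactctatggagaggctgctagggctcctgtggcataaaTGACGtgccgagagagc
Fos promoter (chr12:85473749-85473840, plus strand): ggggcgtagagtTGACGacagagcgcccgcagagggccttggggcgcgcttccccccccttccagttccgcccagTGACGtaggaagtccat
Jun promoter (chr4:95052248-95052279, minus strand): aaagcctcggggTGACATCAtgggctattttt
Atf3 promoter (chr1:191183334-191183352, minus strand): ttaatagcattaCGTCAgc
TGACG was present in 7 of the 8 member promoters and in 17.765% of the 32851 promoters in the table. It occurred 4 times in each of the Nr4a1, Nr4a2 and Nr4a3 promoters, and 45 promoters in all (0.137%) held 4 or more occurrences. The full TGACGTCA was in none of the 8 and in 1.546% of all promoters. A GC-rich sequence, GGGCGG, was also in 7 of the 8 and in 32.742% of all promoters. It occurred 4 or more times in 2 of the 8 and in 4.09% of all. The base composition of the promoters was not taken into account in these shares. Jun was the member without TGACG, and its TGACATCA was found in 2.928% of promoters. The last bases of the Nr4a3 and Atf3 stretches lie in an exon of the same gene in GENCODE M21. The Nr4a1 stretch lies inside the gene as annotated there but in no exon. These matches describe letters in the reference genome and not binding in these aortas.

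Library totals were 1523328 to 6352365 counts, of which 1109737 to 3188442 fell on protein-coding genes, 36.3% to 74.6% of a library. Smooth muscle markers marked the tissue as labelled: 8 of the 10 on the list had counts, at a summed 7063 to 21495 CPM. CPM, the count divided by library size on a common scale, was adjusted by the trimmed mean of M values (TMM). Ppp3cb was at 21.3 ± 6.11 CPM in KO and 41.9 ± 10.8 CPM in WT aortas (SD, n = 12 each), with each of the 12 KO values under the WT median. Several libraries stood apart. WT control male replicate 1 had the highest level of 9 of the 10 members among the 24 libraries and the lowest protein-coding share, 36.3%. KO control female replicate 1 had the lowest level of 7 members and the highest protein-coding share, 74.6%. It was the shallowest library, and 4 members, Fosb, Junb, Atf3 and Ier2, had 0 counts there, which allows up to 1.97 CPM of its total. Receptor genes of the olfactory and vomeronasal families, mostly silent outside sensory tissue, held 1002 to 1992 CPM of protein-coding counts in the 3 KO control females and 111 to 1073 CPM in the other libraries. For the members, results that rest on these libraries are given below with and without them. Genes of the other lists were not followed through those fits. In bulk aorta, fewer cells of one type and less RNA in each cell cannot be told apart.

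**Figure D1:**
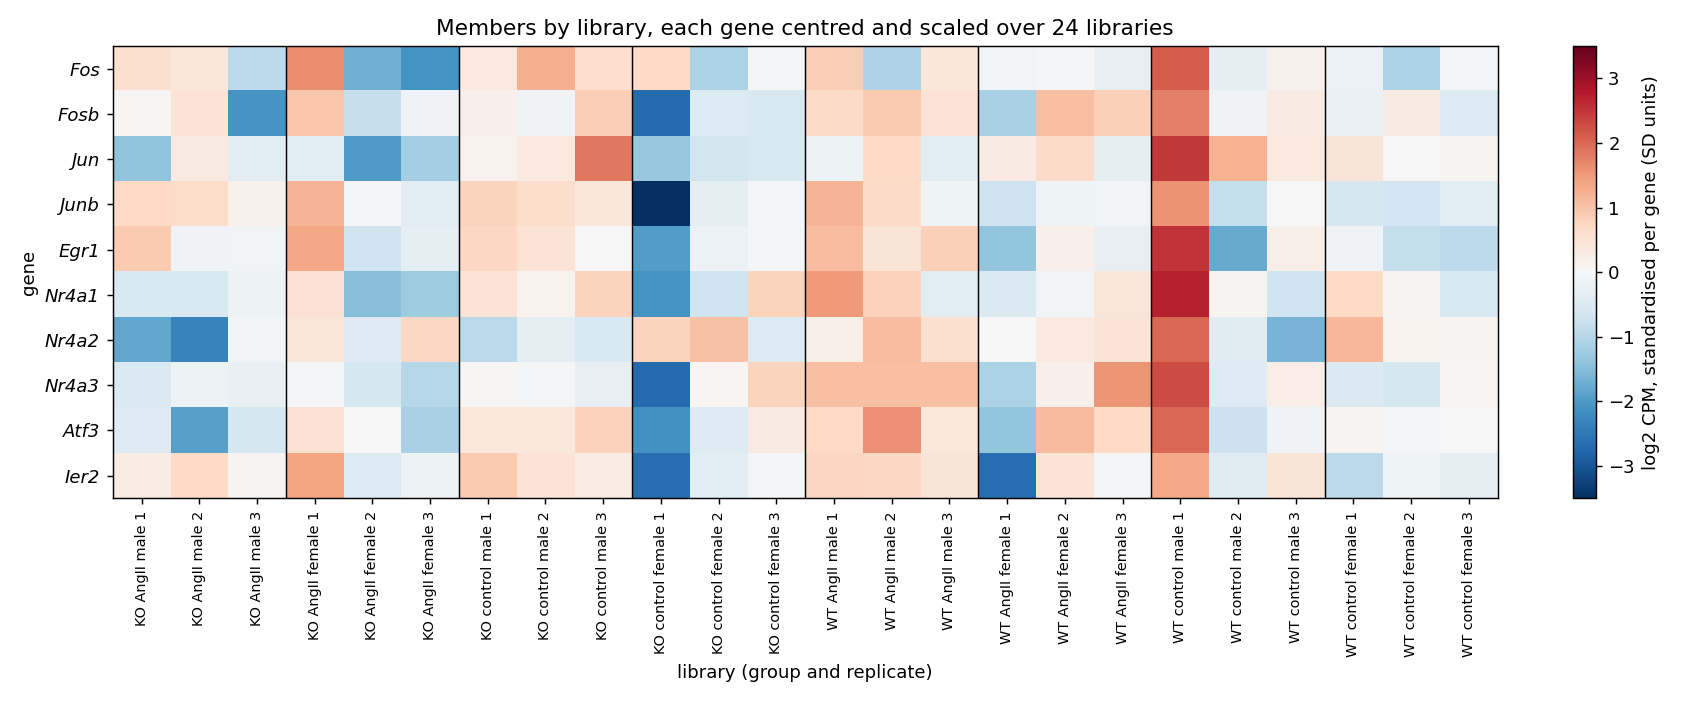
Level of each member (rows) in each of the 24 libraries (columns, 8 groups of 3 mice), as log2 CPM centred and scaled for each gene in SD units. WT control male replicate 1 is high in nearly every row, and KO control female replicate 1 is low in most.

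Egr1 was the most abundant of the 10 members per kilobase of exon, at 29.0 ± 16.1 CPM per kb over the 24 libraries (SD), which put it at the 96.0th percentile of 13386 protein-coding genes. Jun followed at 18.2 ± 6.94 CPM per kb and Nr4a1 at 12.8 ± 14.9 CPM per kb. Fos (7.10), Ier2 (6.95), Junb (6.54) and Atf3 (5.13 CPM per kb) formed a middle range. The other NR4A receptors were lower, Nr4a2 at 3.91 and Nr4a3 at 2.83 CPM per kb, and Fosb was lowest at 1.34 CPM per kb. No step between neighbours in this order was larger than the SD between libraries. Egr1 exceeded Jun in 18 of 24 libraries and Jun exceeded Nr4a1 in 21, whereas Fos exceeded Ier2 in 10 and Ier2 exceeded Junb in 10.

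**Figure D2:**
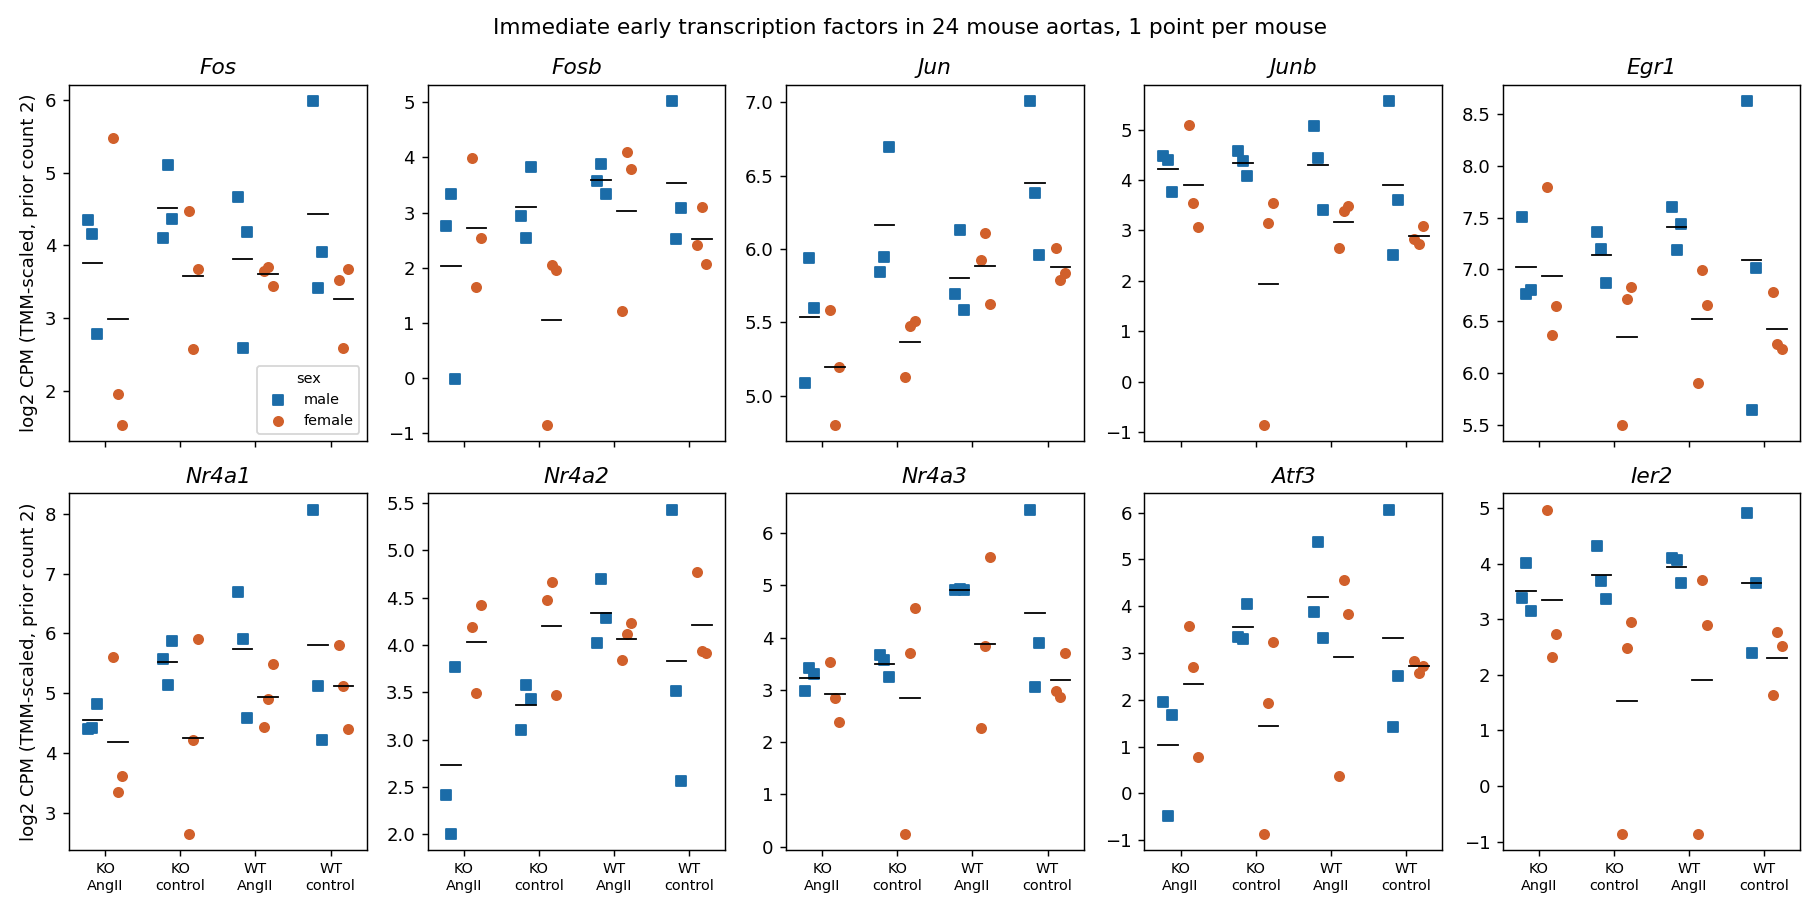
Log2 CPM of each member (TMM-scaled, prior count 2) in the 24 mice, by genotype and treatment, with squares for males, circles for females and a line at each mean of 3 mice. Nr4a3 and Atf3 lie lower in KO AngII than in most WT AngII mice, and the groups overlap for every member.

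With AngII, 6 of the 10 members had a lower estimate in KO than in WT aortas, and the largest differences were in Atf3 and in the NR4A receptor Nr4a3. Neither passed the test after adjustment over all genes, and 0 of the 10 members was called (edgeR's quasi-likelihood test, Benjamini-Hochberg adjusted p under 0.05), beside 0.355% of the 16316 genes tested. The unadjusted p was under 0.05 for 3 members, Nr4a3, Atf3 and Jun, and for 7.75% of all genes tested (edgeR). DESeq2 and limma-voom called 0 as well. With no filter on low counts edgeR called Atf3 (-2.30, adjusted p = 4.16e-05), Nr4a3 (-1.65, adjusted p = 0.000524) and Nr4a1 (-0.98, adjusted p = 0.0177), and the cause of that change was not tested. Without KO AngII female replicate 1 all 10 members had a lower estimate in KO.

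Nr4a3, a nuclear receptor induced in smooth muscle by growth factors, had 11.1, 6.65 and 4.66 CPM in KO AngII females and 7.33, 10.1 and 9.39 CPM in KO AngII males. In WT AngII mice it had 4.25, 13.7 and 46.0 CPM in females and 29.5, 29.9 and 29.6 CPM in males. All 6 KO mice lay below the WT median, every KO male lay below every WT male, and WT AngII female replicate 1 lay below all KO mice, so that the groups overlapped. The difference, KO over WT, was -1.61 ± 0.51 log2 (SE, edgeR, adjusted p = 0.274), with a 95% interval of 0.158-fold to 0.678-fold. Without WT AngII female replicate 3, the highest of that group, it was -1.01. Without the library highest and the library lowest in most members, both of them controls, it was -1.61 with an adjusted p of 0.034 (edgeR). Those libraries were picked for their extreme member values after the data had been seen. They lie outside this comparison, so the smaller p is not support for the difference. Without WT control male replicate 1 alone the adjusted p was 0.136, and without KO control female replicate 1 alone 0.143 (edgeR). The females alone gave -1.50 and the males alone -1.72.

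Atf3, which is induced by many kinds of stress, had 11.4, 5.91 and 1.17 CPM in KO AngII females and 3.30, 0.165 and 2.62 CPM in KO AngII males. WT AngII females had 0.750, 22.9 and 13.8 CPM, and WT AngII males 14.1, 41.1 and 9.49 CPM. The 6 KO mice again lay below the WT median, and WT AngII female replicate 1 was again the low one of its group. Atf3 differed by -2.25 ± 0.73 log2 (SE, edgeR, adjusted p = 0.281), a fold of 0.0746 to 0.590 at 95%. The value was -1.01 in females and -3.5 in males, a difference between the sexes that was not tested. These values rest on few counts: the KO AngII males had 9, 1 and 12 counts of Atf3. KO AngII female replicate 3 had 4 counts and WT AngII female replicate 1 had 3.

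Nr4a1, the founding member of its receptor family, had a median of 20.7 CPM in KO AngII mice (9.60 to 48.0) and of 36.9 CPM in WT AngII mice (21.0 to 103). Its estimate was -0.93 ± 0.49 log2 (SE, edgeR, adjusted p = 0.705), and -1.50 without KO AngII female replicate 1. Nr4a2 had a median of 11.9 CPM in KO AngII mice (3.47 to 21.0) and of 17.5 CPM in WT AngII mice (13.8 to 25.5), with -0.73 ± 0.38 log2 (edgeR, adjusted p = 0.7) and -1.16 without KO AngII male replicate 3. For both genes, 4 of the 6 KO mice lay below every WT mouse. In males alone Nr4a2 was at -1.48, and in females alone at 0.02.

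Among the AP-1 members, Jun had 27.3 to 60.7 CPM in KO AngII mice and 47.4 to 69.3 CPM in WT AngII mice, -0.46 ± 0.21 log2 (SE, edgeR, adjusted p = 0.601). Fos was at 0.19 ± 0.52 and Fosb at -0.76 ± 0.59. Junb (0.39 ± 0.46), Egr1 (0.07 ± 0.32) and Ier2 (0.36 ± 0.58) had positive estimates within 1 SE of 0. Their groups overlapped widely, Egr1 at a median of 109.5 CPM in KO AngII and 135.7 CPM in WT AngII mice. Protein-coding shares were 53.3 ± 12.0% in KO AngII and 52.5 ± 7.5% in WT AngII libraries (SD, n = 6 each). With that share as a covariate Nr4a3 was at -1.71 and Atf3 at -2.61. Of the 8 smooth muscle markers tested, 3 were higher in KO and 0 were called. Also higher in KO were 0 of 6 cardiac muscle, 0 of 7 brown adipocyte, 1 of 7 neural, 2 of 9 fibroblast and 3 of 10 adipocyte markers. In the remaining lists 4 of 9 macrophage, 6 of 9 endothelial, 3 of 4 blood, 4 of 4 skeletal muscle and 5 of 5 lymphocyte markers were higher. None of these was called, and the part of these markers in the members' values was not tested.

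**Figure D3:**
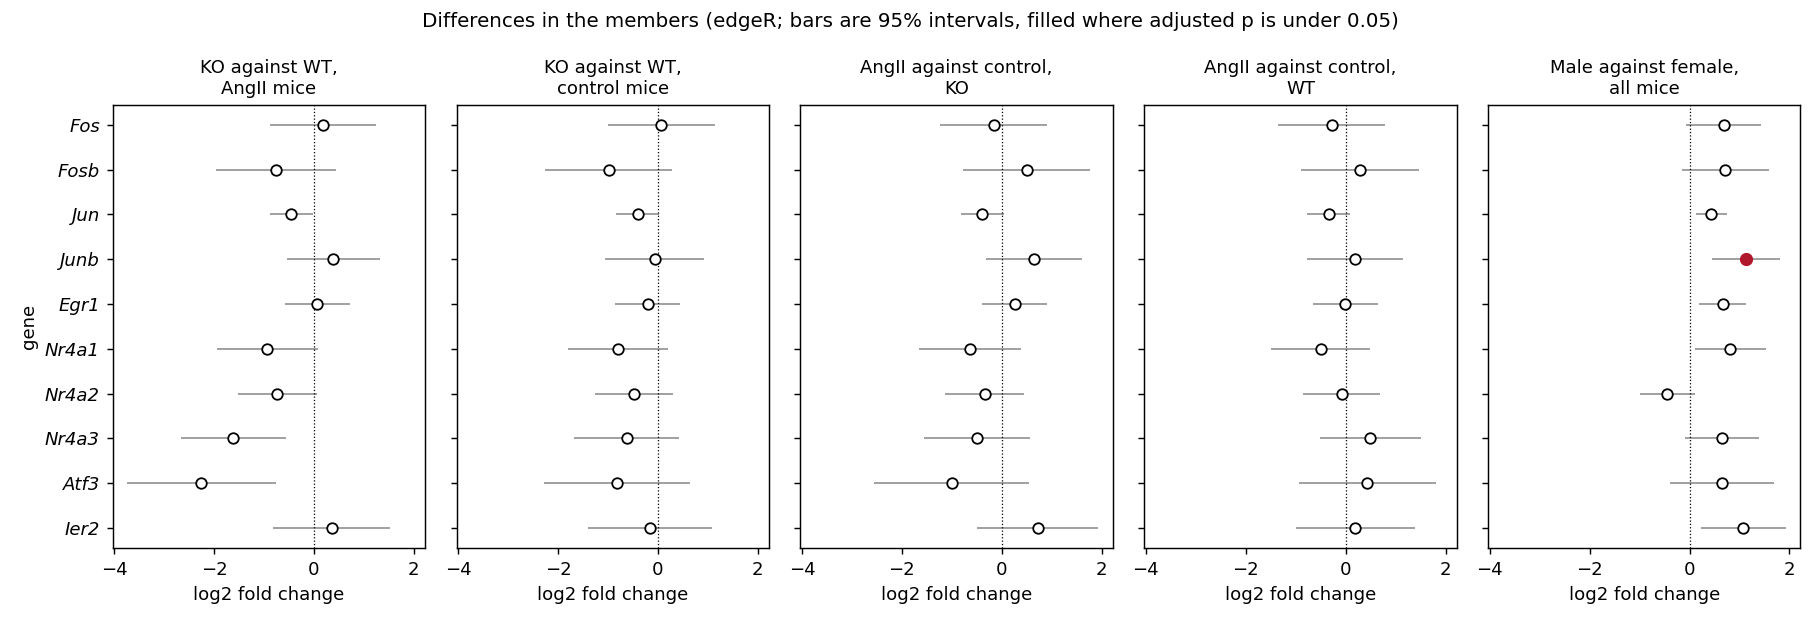
Log2 fold change of each member (circle) with its 95% interval (bar) in 5 comparisons, edgeR fit over all 24 libraries. The filled circle is Junb between the sexes, the only value with an adjusted p under 0.05. The intervals of Nr4a3, Atf3 and Jun between KO and WT under AngII do not reach 0. Nor do those of Egr1, Jun, Ier2 and Nr4a1 between the sexes.

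Without AngII, 9 of the 10 members had a lower estimate in KO than in WT aortas, with a median of -0.43 log2 over the members and -0.01 over all genes tested. With WT control male replicate 1 left out, 2 of the 10 were lower and the median was 0.24, so that this direction rested on 1 library. None was called and none had an unadjusted p under 0.05 (edgeR, lowest adjusted p = 0.549; 0.221% of genes were called), and DESeq2 and limma-voom called 0. Jun had a median of 50.9 CPM in KO control mice (34.4 to 103) and of 62.7 CPM in WT control mice (54.8 to 128), at -0.40 ± 0.21 log2. Nr4a1 had a median of 40.8 CPM in KO control mice (5.73 to 59.3) and of 34.3 CPM in WT control mice (18.2 to 269). Its estimate, -0.80 ± 0.49, rested on WT control male replicate 1, at 269 CPM, and was 0.20 without that library. The other members that turned were Nr4a2 (-0.47, and 0.15 without it), Nr4a3 (-0.63 and 0.21), Atf3 (-0.81 and 0.54), Junb (-0.06 and 0.59), Egr1 (-0.20 and 0.33) and Ier2 (-0.16 and 0.26). Jun (-0.25) and Fosb (-0.40) stayed negative without it. All 8 smooth muscle markers tested had lower estimates in KO control mice, with 0 called. Higher there were 9 of 9 macrophage, 6 of 7 neural, 4 of 5 lymphocyte, 3 of 4 skeletal muscle and 3 of 4 blood markers. So were 4 of 6 cardiac muscle, 5 of 9 fibroblast, 4 of 9 endothelial, 1 of 7 brown adipocyte and 1 of 10 adipocyte markers. None of these was called, and the part of all these markers in the members' values was not tested.

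Over all mice, a comparison read for the members after their values had been seen, 7 of 10 were lower in KO than in WT. That count was 10 when KO AngII female replicate 1 was left out and 6 when WT control male replicate 1 was. None was called by edgeR, DESeq2 or limma-voom (edgeR called 1.34% of genes), and 5 had an unadjusted p under 0.05. All 8 smooth muscle markers tested had lower estimates in KO here too. Higher in KO were 9 of 9 macrophage, 4 of 4 skeletal muscle, 4 of 5 lymphocyte, 3 of 4 blood and 3 of 6 cardiac muscle markers. So were 4 of 9 endothelial, 3 of 9 fibroblast, 2 of 7 neural, 1 of 10 adipocyte and 0 of 7 brown adipocyte markers. None of these was called, and the part of all these markers was not tested. Nr4a3 was at -1.12 ± 0.36 (SE, edgeR, adjusted p = 0.126), with 11 of 12 KO mice below the WT median, and Atf3 at -1.53 ± 0.51 (adjusted p = 0.142), with 7 of 12. Jun was at -0.43 ± 0.15 (edgeR, adjusted p = 0.167), with 10 of 12 KO mice below the WT median and 6 below every WT mouse. Nr4a1 (-0.87 ± 0.35) and Nr4a2 (-0.60 ± 0.27) were the other members with an unadjusted p under 0.05. The values were smaller without WT control male replicate 1, at -0.70 for Nr4a3, -0.85 for Atf3, -0.37 for Nr4a1, -0.29 for Nr4a2 and -0.35 for Jun. Leaving out WT control male replicate 2 brought Nr4a3 to -1.28 (adjusted p = 0.0364) and Atf3 to -1.71 (adjusted p = 0.0451). Leaving out WT AngII female replicate 1 brought Nr4a3 to -1.28 (adjusted p = 0.0451).

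After 4 weeks of AngII, no member was called against control in either genotype. In KO aortas the members' median was -0.25 log2, with 4 of 10 higher, and in WT aortas it was 0.09, with 5 of 10 higher. Without WT control male replicate 1 the WT median was 0.60, with 9 of 10 higher and Jun the exception at -0.17, and no member was called. Without KO control female replicate 3 the KO median was -0.06. With all libraries, neither comparison held a member with an unadjusted p under 0.05 (edgeR, lowest adjusted p 0.687 in KO and 0.884 in WT), and DESeq2 and limma-voom called 0 members in both. Of all genes tested, edgeR called 0% in KO and 0.208% in WT. In KO limma-voom called 0 genes and DESeq2 20, and 1258 were at an unadjusted p under 0.05 by edgeR. Higher with AngII in KO were 7 of 8 smooth muscle, 7 of 9 fibroblast, 8 of 10 adipocyte and 5 of 7 brown adipocyte markers. So were 3 of 4 skeletal muscle, 3 of 4 blood, 2 of 9 macrophage and 2 of 6 cardiac muscle markers. Of the remaining lists, 1 of 9 endothelial, 1 of 7 neural and 1 of 5 lymphocyte markers were higher, and none of all these was called. Higher with AngII in WT were 9 of 9 macrophage and 7 of 9 fibroblast markers, with 2 fibroblast markers called. So were 5 of 8 smooth muscle, 4 of 6 cardiac muscle, 3 of 4 blood, 4 of 10 adipocyte and 3 of 7 brown adipocyte markers. Of the remaining lists, 2 of 5 lymphocyte, 2 of 4 skeletal muscle, 1 of 9 endothelial and 1 of 7 neural markers were higher. The part of these markers in the members' values was not tested. The 2 genotype comparisons and the 2 AngII comparisons share mice, so their values are not independent of one another.

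Egr1, the best measured member at 70 to 1333 counts in a library, had a median of 109.5 CPM in KO AngII mice (82.0 to 222) and of 114 CPM in KO control mice (44.6 to 163). In WT mice its median was 136 CPM with AngII (59.3 to 194) and 93.1 CPM in controls (49.3 to 394). The differences were 0.26 ± 0.32 log2 in KO and -0.01 ± 0.32 in WT, and the 95% interval in WT, 0.633-fold to 1.56-fold, shows what size of change these mice leave possible. For Fos, the classic marker of recent stimulation, the interval was wider, 0.393-fold to 1.72-fold in WT and 0.426-fold to 1.88-fold in KO. Fos had a median of 11.8 CPM in KO AngII mice (up to 43.8) and 18.3 CPM in KO control mice (up to 33.8), and of 12.2 CPM in WT AngII mice (up to 24.9) and 11.6 CPM in WT control mice (up to 62.7).

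Jun had negative estimates in both genotypes, -0.39 ± 0.21 in KO and -0.34 ± 0.21 in WT. Nr4a1 was at -0.63 ± 0.50 in KO and -0.50 ± 0.48 in WT, and without WT control male replicate 1 the WT value was 0.52; the KO value was -1.18 without KO AngII female replicate 1. Nr4a3 had -0.49 ± 0.52 in KO and 0.49 ± 0.50 in WT, and Atf3 had -1.0 ± 0.76 in KO and 0.44 ± 0.67 in WT. The WT values depended on single libraries. Nr4a3 in WT was 1.35 without WT control male replicate 1 and -0.15 without WT AngII female replicate 3, and Atf3 in WT was 1.8 without that control and -0.01 without WT AngII male replicate 2. These were the members whose estimates lay furthest apart between the genotypes. Their KO response minus their WT response was -0.98 ± 0.72 for Nr4a3 and -1.44 ± 1.01 for Atf3, both with an adjusted p of 1 (edgeR). Without WT control male replicate 1 it was -1.83 for Nr4a3 and -2.80 for Atf3, without WT AngII female replicate 3 it was -0.33 for Nr4a3, and without KO control female replicate 3 it was -0.86 for Atf3. No member was called in this interaction, none had an unadjusted p under 0.05, and 0% of all genes were called. DESeq2 and limma-voom also called 0 genes, and 657 had an unadjusted p under 0.05 (edgeR).

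The AngII response was also set against sex. In KO mice the male response minus the female response was negative for 9 of 10 members, and in WT mice for 9 of 10. The KO count was 7 of 10 with KO AngII female replicate 1 left out, and the WT count was 2 of 10 with WT control male replicate 1 left out. Atf3 in KO was the one value with an unadjusted p under 0.05, at -3.21 ± 1.51 (edgeR, adjusted p = 0.644): it had 0.165 to 3.30 CPM in KO AngII males, 9.36 to 16.0 CPM in KO control males, 1.17 to 11.4 CPM in KO AngII females and 0 to 8.87 CPM in KO control females. The KO AngII males held 1 to 12 counts of Atf3, and the KO control females 0 to 16. No member was called in either test by edgeR, DESeq2 or limma-voom. The share of genes called by edgeR was 0% in KO, with 1237 at an unadjusted p under 0.05, 16 calls by DESeq2 and 6 by limma-voom. It was 0% in WT, with 515, 3 and 0.

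Sex was the comparison that held the 1 member called. Males had the higher estimate in 9 of 10 members, and the median of the members was 0.67 log2, against -0.05 over all genes tested. These were 8 of 10 and 0.37 without WT control male replicate 1. Junb, an AP-1 subunit, was that member, higher in males, where 5.27% of all genes were called. An unadjusted p under 0.05 was found for 5 members and for 20.2% of all genes tested (edgeR). Junb had a median of 20.3 CPM in males (5.19 to 46.7) and of 8.09 CPM in females (0 to 33.5). The difference was 1.14 ± 0.34 log2 (SE, edgeR, adjusted p = 0.0415), with 11 of 12 males above the female median. DESeq2 also called Junb, and limma-voom called Junb and Egr1.

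By group, Junb had 13.1 to 21.6 CPM in KO AngII males and 7.87 to 33.5 CPM in KO AngII females. KO control males had 16.3 to 23.2 CPM and KO control females 0 to 11.1 CPM, without overlap. WT AngII males had 10.1 to 33.2 CPM and WT AngII females 5.75 to 10.6 CPM. Among WT controls the males had 5.19, 11.6 and 46.7 CPM and the females 6.09 to 7.90 CPM, so that there the difference lay in 2 of the 3 males. Without WT control male replicate 1 Junb was at 0.81 (edgeR, adjusted p = 0.138), and without KO control female replicate 1 at 1.00 (adjusted p = 0.0405). The call was lost in 11 of the 24 fits that each left out 1 library, with the replicate number as a block (1.04), with a minimum of 50 counts (1.09, edgeR, adjusted p = 0.0509) and with the protein-coding share as a covariate, given below.

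Egr1 had a median of 145 CPM in males (49.3 to 394) and of 99.9 CPM in females (44.6 to 222), 0.66 ± 0.23 log2 (edgeR, adjusted p = 0.0805). Jun was at 0.44 ± 0.15 (adjusted p = 0.0779, edgeR), Ier2 at 1.08 ± 0.42 (adjusted p = 0.13) and Nr4a1 at 0.81 ± 0.35 (adjusted p = 0.176). For Egr1, Ier2 and Fosb, 11 of 12 males lay above the female median. Without WT control male replicate 1 Egr1 was at 0.39 and Nr4a1 at 0.31. Nr4a2 went the other way, with a median of 11.1 CPM in males and 17.2 CPM in females and 5 of 12 males below every female, at -0.45 ± 0.27 (edgeR, adjusted p = 0.373), and -0.76 without WT control male replicate 1.

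The composition of the libraries moved with sex. Protein-coding genes held 50.1 ± 8.26% of counts in males and 60.3 ± 9.19% in females (SD, n = 12 each), and rRNA, snRNA and misc_RNA genes held 32.3 ± 7.58% in males and 18.0 ± 9.33% in females. Of 8 smooth muscle markers tested, 7 were higher in males and 3 were called, at a summed 13535 to 21495 CPM in males and 7063 to 18768 CPM in females. Also higher in males were 7 of 9 fibroblast, 7 of 9 macrophage and 4 of 7 neural markers, with 1 called in each list. So were 6 of 10 adipocyte, 3 of 4 blood, 3 of 9 endothelial and 2 of 6 cardiac muscle markers. In the remaining lists 1 of 5 lymphocyte, 1 of 7 brown adipocyte and 0 of 4 skeletal muscle markers were higher. Over the 24 libraries the levels of Junb and Egr1 fell as the protein-coding share rose, with r = -0.74 for Junb (rho = -0.69) and r = -0.73 for Egr1 (rho = -0.70). The permutation p of these r was 1e-05 for Junb, the smallest that 100000 permutations can give, and 6e-05 for Egr1, adjusted over the 10 members to 0.0001 and 0.0003. For the rho the permutation p was 0.00024 for Junb and 0.00025 for Egr1, and 0.00125 for both when adjusted. Within the 12 males r was -0.71 for Junb and -0.76 for Egr1, within the 12 females -0.63 and -0.54, and without the 2 libraries of most extreme share -0.71 and -0.70. Fos, Fosb, Jun, Nr4a1, Nr4a3, Atf3 and Ier2 also fell with the share, with r from -0.43 (Jun) to -0.63 (Nr4a1). The adjusted permutation p of these r was 0.0024 (Nr4a1) to 0.043 (Jun). For the rho of Jun and Nr4a3 the adjusted permutation p was 0.273. Nr4a2 was the exception, with r = -0.002 over the 24 libraries, -0.46 within the males and 0.16 within the females. With the protein-coding share as a covariate Junb between the sexes was at 0.43 (edgeR, adjusted p = 0.604), Egr1 at 0.08 (adjusted p = 0.929), and Fos, Nr4a1, Nr4a3 and Atf3 changed sign. The part of this share and of the cell type markers in the sex difference was not tested further.

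**Figure D4:**
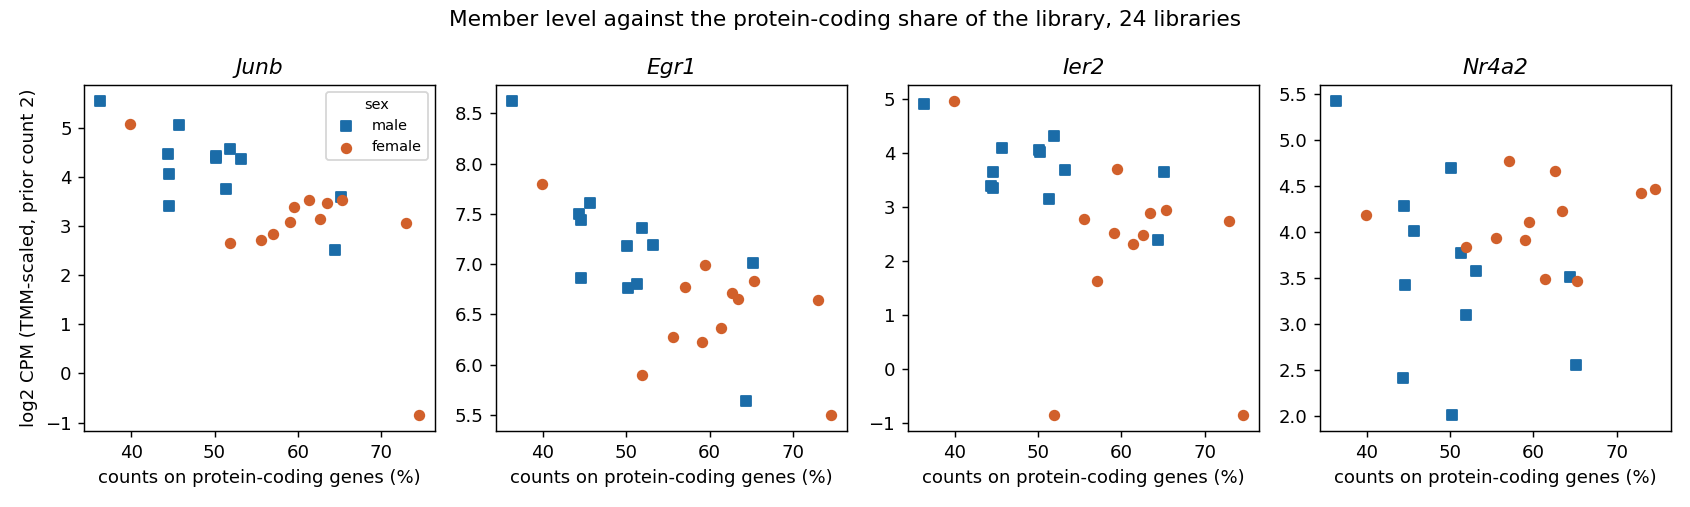
Log2 CPM of Junb, Egr1, Ier2 and Nr4a2 (vertical axes) against the percent of counts on protein-coding genes (horizontal axes) in 24 libraries, squares for 12 males and circles for 12 females. Junb and Egr1 fall with the share within each sex, males lie mostly at lower shares, and Nr4a2 has r near 0 over all libraries, negative within males and positive within females.

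The spread from mouse to mouse was set beside that of other genes. The SD of log2 CPM within groups, pooled over the 8 groups, had a median of 1.14 over the members and 0.78 over all genes tested. Set against genes within 0.5 log2 of their own level, Atf3 lay at the 99.6th percentile of this SD (1.60), Ier2 at the 98.4th, Nr4a3 and Nr4a1 at the 98.0th, and Junb, Egr1, Fos and Fosb at the 94.7th to the 96.0th. Jun, with an SD of 0.36, lay at the 47.1st and Nr4a2, with 0.72, at the 70.8th percentile. Without the library highest and the library lowest in most members, the members' median SD was 0.77 and that of all genes 0.66, and the members lay at the 49.8th (Jun) to the 98.35th percentile (Nr4a1) of genes of like level, with Junb at the 71.8th. By edgeR's biological coefficient of variation, which draws each gene towards others, the members' median was 0.581 and that of all genes 0.486, and the members lay at the 12.0th (Jun) to the 72.3rd percentile (Atf3) of all genes, whatever their level.

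The members also varied together. Over the 45 pairs the median of Pearson's r was 0.55, from -0.15 to 0.85. By r and by rho, 26 pairs had a permutation p under 0.05 after adjustment over the pairs (100000 permutations). The same share was not computed for pairs of other genes, so this count does not set the members apart from other genes. Junb and Ier2 had r = 0.85 (rho = 0.87, both permutation p = 1e-05, adjusted 0.000225 and 0.00015), and r = 0.76 without the 2 libraries farthest from the Junb median. Junb and Egr1 had r = 0.83 (rho = 0.86, permutation p = 1e-05 for each) and 0.83 without the farthest 2. Nr4a3 and Atf3 had r = 0.79 (permutation p = 2e-05, adjusted 0.000225) and rho = 0.70 (permutation p = 0.00027, adjusted 0.00174), and r = 0.63 without the farthest 2. Nr4a2 stood outside over the 24 libraries, with r between -0.15 and 0.39 to the other members. Taken as deviations from the group means, its r was positive with every other member, from 0.04 (Fosb) to 0.43 (Nr4a1) and 0.47 (Jun). Leaving out 2 libraries for each pair brought the median r to 0.36, and 20 pairs then had an r under 0.3. Taken as deviations from the group means the median r was 0.54. The protein-coding share described above is common to all these libraries, and its part in the correlations was not tested.

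**Figure D5:**
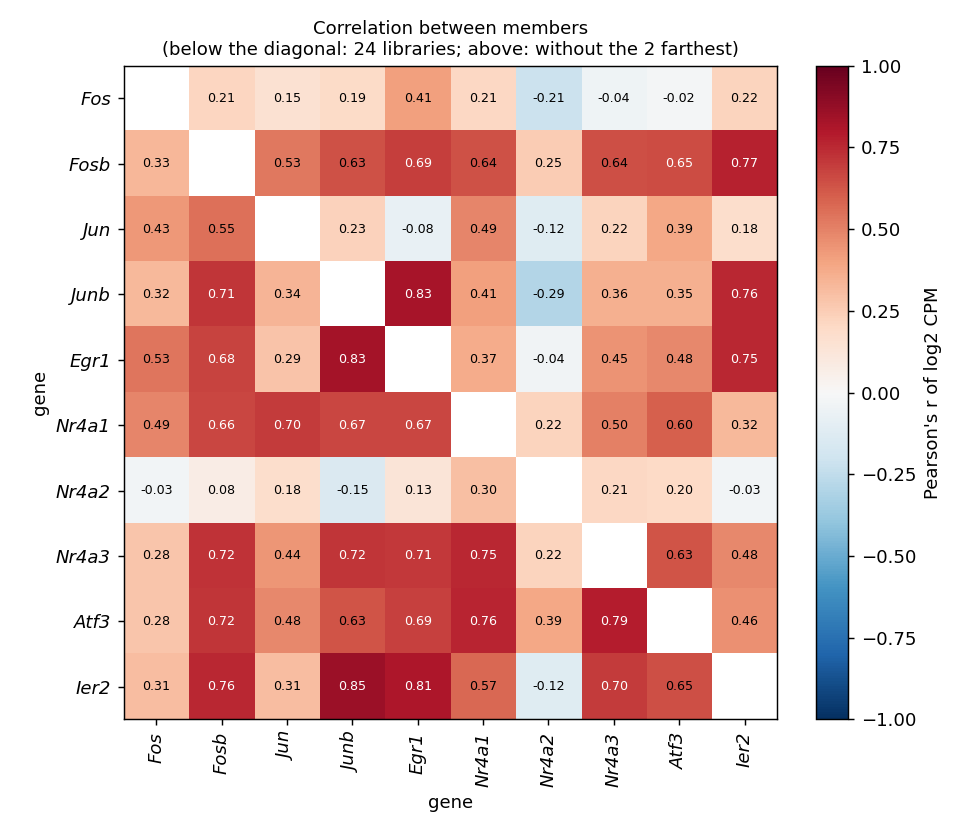
Pearson's r of log2 CPM between each pair of members, below the diagonal over 24 libraries and above it without the 2 libraries farthest from the median of one gene of the pair. Junb, Egr1, Ier2 and Fosb keep r of at least 0.63 above the diagonal, and above the diagonal the Nr4a2 pairs lie between -0.29 and 0.25.

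Likeness was ranked among the 5329 protein-coding genes whose mean log2 CPM reached 4. The gene most like the members' mean standardised level over the 24 libraries was Btg2, an antiproliferative immediate early gene (r = 0.85, and 0.83 without the highest and the lowest library). Dot1l, a histone H3 methyltransferase, followed at 0.81 (0.53 without those libraries), then Cyr61, the matricellular immediate early gene now named Ccn1, at 0.80 (0.66). Dusp1, which dephosphorylates mitogen-activated protein kinases, was at 0.79 (0.66). Med13l, Arhgef1, Shroom3, Tshz3, Ddx54 and Bag6 completed the first 10, at 0.77 to 0.79. These values rank likeness and carry no test, since the libraries share depth and composition.

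Other genes of the same response were followed through lists. Of all genes tested, 7.71% had an unadjusted p under 0.05 with AngII in KO and 6.71% in WT (edgeR). Between KO and WT the share was 7.75% with AngII and 9.73% without. Of 12 further AP-1 and small Maf factors tested, 0 were called with AngII in KO and 0 in WT, with unadjusted p under 0.05 for 3 in KO and 1 in WT. Fosl1, an AP-1 subunit of the Fos family, was at 1.84 ± 0.58 in KO (edgeR, adjusted p = 0.388) and 0.66 ± 0.56 in WT (adjusted p = 0.96). Mafk, a small Maf protein that pairs with other leucine zipper factors, was called lower in KO than in WT over all mice, at 29.8 ± 12.8 CPM in KO and 46.4 ± 11.6 CPM in WT (SD, n = 12 each; -0.71 ± 0.17 log2, edgeR, adjusted p = 0.0247). Its lowest value, 3.88 CPM, came from a KO control female, and the call was not followed without that library. Fosl2 stood at 54.8 ± 20.1 CPM with AngII in KO and at 91.5 ± 16.2 CPM with AngII in WT (n = 6 each, SD), a difference of -0.74 ± 0.26 (edgeR, adjusted p = 0.38).

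Of 36 other immediate early genes tested, 0 were called with AngII in KO, where 1 had an unadjusted p under 0.05, and 0 in WT, where 3 had, by edgeR. Hbegf, a growth factor of the EGF family, had 13.7 ± 8.18 CPM in KO AngII and 9.59 ± 3.75 CPM in KO control mice, and 23.2 ± 6.97 CPM in WT AngII and 8.28 ± 2.90 CPM in WT control mice (SD, n = 6 each). Its AngII difference was 0.49 ± 0.38 in KO (edgeR, adjusted p = 0.809) and 1.49 ± 0.38 in WT (adjusted p = 0.118). Sgk1, a kinase induced by serum and glucocorticoids, was the gene with an unadjusted p under 0.05 in KO. It had 40.7 ± 4.34 CPM in KO AngII and 21.4 ± 9.71 CPM in KO control mice, and 48.7 ± 22.6 CPM in WT AngII and 41.2 ± 5.42 CPM in WT control mice (SD, n = 6 each). Its AngII difference was 0.96 ± 0.26 in KO (edgeR, adjusted p = 0.295) and 0.23 ± 0.25 in WT (adjusted p = 0.989). The lowest Sgk1 value, 6.37 CPM, came from a KO control female, and the KO difference was not followed without that library. Between KO and WT under AngII 13 of the 36 were higher and 0 were called, with 5 at an unadjusted p under 0.05. Their median was -0.26 log2, against 0.01 over all genes.

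The upstream factors and kinases gave 0 calls by edgeR among 28 tested with AngII in KO and WT, where 0 and 1 had an unadjusted p under 0.05, and 0 between KO and WT with and without AngII, where 2 and 2 had. Srf, the factor that binds the serum response elements of Fos and Egr1, was at -0.42 ± 0.18 in KO against WT under AngII (edgeR, adjusted p = 0.562). Mrtfb, a coactivator of Srf, had a positive estimate, 0.51 ± 0.18 (edgeR, adjusted p = 0.371), with 102.2 ± 18.3 CPM with AngII in KO and 71.9 ± 5.67 CPM with AngII in WT (n = 6 each, SD). Between the sexes, where 5.27% of all genes were called and the protein-coding share and smooth muscle markers also differed, 3 of the 28 were called, all higher in males: the CREB coactivator Crtc3 (0.61 ± 0.14), the MEF2 family factor Mef2d (0.63 ± 0.15) and the kinase Map2k7 (0.56 ± 0.15). Also higher in males and called were Mafk and Atf4 of the AP-1 list, Egr3 (6.11 ± 2.56 CPM in males and 2.57 ± 2.31 CPM in females, SD, n = 12 each) among 7 zinc finger factors, Per1 and Rhob among the 36, and Nab2, a co-repressor of Egr1, with Rxrb among 8 partners. Egr3 had no count in the 3 KO control females, so its fitted fold is not given. The part of composition in these calls was not tested.

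Heat shock genes, which share stress as an inducer with Atf3, had lower estimates in KO than in WT under AngII in 13 of 13 tested, and 3 were called, beside 0.355% of all genes called and 50.9% of all genes with a higher estimate in KO. The inducible chaperone Hspa1b stood at 21.8 ± 7.85 CPM with AngII in KO and at 104.9 ± 47.3 CPM with AngII in WT (n = 6 each, SD; -2.24 ± 0.39 log2, edgeR, adjusted p = 0.0036). Hspa1a was at -1.92 ± 0.40 (adjusted p = 0.0174, edgeR) and Hsph1, a co-chaperone of the same family, at -1.26 ± 0.25 (adjusted p = 0.0115). Hspa1a and Hspa1b are near-identical copies whose reads the counting could split. The lower estimates were not limited to AngII mice. In control mice 1 of the 13 had a higher estimate in KO, with a median of -0.25 log2, and 0 were called. Over all mice 0 of the 13 were higher in KO and 4 were called lower, beside 1.34% of all genes called. With AngII 7 of the 13 had higher estimates in KO and 12 of 13 in WT, and edgeR called 0 in both, with 1 in KO and 5 in WT at an unadjusted p under 0.05. Between the sexes Hspb8 and Bag3 were called, both higher in males.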

How the data were processed

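The authors deposited 1 table of raw counts per gene for the 24 libraries, without normalization. The submitters' processing notes list featureCounts 1.4.6, Bowtie2 2.2.5, TopHat2 2.0.14 and cutadapt 1.8.1, with build mm10; settings and strandedness are not given in the sources used here. Per the labels' protocols, total RNA was depleted of rRNA and fragmented. The 6021 genes of the X, Y, MT and chromosome 9 sequences, and 526 on chromosome 8 beyond position 97565603, were at 0 counts throughout and were treated as not measured; no member lies there. Exon lengths came from GENCODE M21.

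Members and lists were chosen with earlier results of these data known. Genes were filtered with filterByExpr (16316 kept), scaled by TMM and fitted with edgeR 4.0.16 in R 4.3.3, 1 coefficient for each of 8 groups; contrasts over sexes average the female and the male contrast. The quasi-likelihood F-test was two-sided, with Benjamini-Hochberg adjustment over all genes tested and a call under 0.05. The SE is the log2 fold change divided by the root of F, and log2 CPM used a prior count of 2. The script was tested on simulated counts. Alternatives included DESeq2 1.42.0, limma 3.58.1, other filters, a replicate block and leaving out each library. All 10 members are named, as are the 10 genes most like them. Genes named from each list were taken from the called genes and up to 4 with the smallest p. Libraries of a group differed by a chi-square per degree of freedom of at least 6.66, so none was a copy. Errors cover the spread between mice; PCR copies were not marked. Correlations used Python 3.11.15 with scipy 1.17.1.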

Additional observations from a re-analysis of the deposited data

Results flagged for a closer look

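In each group of 6 mice sharing genotype and treatment, males and females were pooled. The highest and lowest log2 CPM of every member was compared with the rest by Dixon's ratio. In 10 of the 40 groups tested 1 library lay past the 95% critical value of 0.625. A chance rate of 1 in 20 is no reference for this count, because the 10 members were read in the same mice and vary together (median r = 0.55). Values below are in CPM. At 0 counts, as for Junb and Ier2 here, the log2 CPM was set by the prior count of 2. The libraries were the same 3 throughout. KO control female replicate 1 was low in Junb (0 CPM, others 8.28 to 23.2), Egr1 (44.6 CPM, others 104 to 163), Nr4a3 (0.637 CPM, others 8.99 to 23.3) and Ier2 (0 CPM, others 5.04 to 19.5). WT AngII female replicate 1 was low in Fosb (1.75 CPM, others 9.49 to 16.5) and Ier2 (0 CPM, others 6.89 to 16.6). WT control male replicate 1 was high in Fosb (31.9 CPM, others 3.65 to 8.04), Junb (46.7 CPM, others 5.19 to 11.6), Nr4a3 (86.9 CPM, others 6.74 to 14.4) and Atf3 (66.2 CPM, others 2.12 to 6.59). Their protein-coding shares were 74.6% in the KO control female, 51.9% in the WT AngII female and 36.3% in the WT control male library, and the part of these shares in the values was not tested.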

How the results depend on the processing

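A result of its own was followed for each member whose log2 difference was at least its SE; smaller ones are counted by sign alone. Of the 90 values over 9 comparisons, 0 changed sign with DESeq2, with DESeq2's size factors, with no count filter, with a minimum of 50 counts or with protein-coding genes alone. The sign changed in 6 with the replicate block, 7 without KO control female replicates 1 and 3, and 16 with the protein-coding share as a covariate. It changed in 22 with limma-voom and 26 without the highest and the lowest library (WT control male replicate 1 and KO control female replicate 1). The share covariate and the last setting were chosen after the data had been seen, and the cause of these changes was not tested.

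The number of members called between the sexes (1) was 4 with no count filter (Junb, Egr1, Nr4a1 and Ier2), 2 with limma-voom, and 0 with a minimum of 50 counts, the replicate block, the share covariate or the highest and lowest library left out. It was 0 to 5 over the fits that each leave out 1 library, 5 without KO AngII female replicate 1 and 0 in 11 of the 24. Between KO and WT with AngII the number (0) was 3 with no count filter (Nr4a1, Nr4a3 and Atf3) and 1 without the highest and lowest library. Over all mice it was 3 with no count filter, and 0 to 2 with 1 library left out. The median correlation between members (0.55) was 0.41 with CPM scaled by total counts and 0.40 without the highest and lowest library. The median spread (1.14) was 1.00 without the 3 KO control females and 0.77 without the highest and lowest library.

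Without the highest and lowest library, AngII in WT gave 0.52 for Nr4a1; KO against WT in control mice gave 0.44 for Nr4a1, 0.12 for Nr4a2, 0.48 for Nr4a3 and 0.82 for Atf3; male against female gave -0.16 for Atf3; and the sexes' difference in the WT response gave 0.077 for Fos and 0.14 for Nr4a3. In 1 sex alone, females gave 0.022 for Jun with AngII in WT, 0.60 for Atf3 with AngII in KO, and, for KO against WT, 0.037 for Nr4a2 and 0.48 for Nr4a3 in controls and 0.024 for Nr4a2 with AngII. Males gave -0.11 for Junb and -0.29 for Ier2 with AngII in KO, and 0.016 for the Nr4a3 interaction. With the share covariate, male against female was -0.15 for Fos, -0.15 for Nr4a1, -0.050 for Nr4a3 and -0.56 for Atf3, and the sexes' difference in the KO response of Fos was 0.60. Limma-voom gave 0.28 for Nr4a1 with AngII in WT and 0.29 for that KO response of Fos.

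With 1 library left out in turn, the values that turned ranged as follows. AngII in WT was -0.80 to 0.52 for Nr4a1. KO against WT in controls was -1.44 to 0.20 for Nr4a1, -0.75 to 0.15 for Nr4a2, -1.07 to 0.21 for Nr4a3 and -1.42 to 0.54 for Atf3. Male against female was -0.025 to 0.96 for Atf3. The sexes' difference in the AngII response was -1.62 to 0.082 for Fos and -2.04 to 0.14 for Nr4a3 in WT, and -1.68 to 1.43 for Fos in KO. WT control male replicate 1 turned each of these but the last, which turned without KO AngII female replicate 1.

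The replicate numbers did not pair the mice: 1 of 24 correlations of same-numbered mice was over 0.1 (-0.02 to 0.13). With the replicate block Junb between the sexes was at 1.04, no longer called.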
